A study of Mus musculus with 6 samples.

Results

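Transcripts of 8 genes with known roles at synapses or along axons were followed across 6 arrays of the distal mouse midgut at E13.5. They were Cbln2, Lingo1, Nrn1, Clvs2, Ppp1r1b, Hapln2, Cacng7 and Adcy8, that is, 8 of the 7322 named genes that were tested on the array. The 8 genes were chosen by their large measured differences between the genotypes on these same arrays. Their genotype differences are therefore given as a description, with no test and no p-value. Each gene had 1 probe under its symbol, none of the spots carried a disqualifying flag, and all 8 probes passed the filter on dim signals.

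Id2-/- embryos, which carry the mutant Id2 alleles in every cell, were set against Id2+/+ littermates, with 3 arrays for each genotype, to ask which transcripts depend on Id2 in the region that forms the small intestine. The mutant line was kept on a 129/Sv or a mixed 129/Sv and NMRI background, and the sources used here do not say which background these embryos had or whether a sample is 1 embryo. A probe was called above background when its signal-to-noise score was at least 3. Between 13891 and 16543 of 33012 probes reached this on an array. The arrays numbered 1 of both genotypes stood apart from the rest. They correlated with each other at r = 0.984 over all tested probes and with the other arrays at 0.909 to 0.931, while the other arrays correlated with each other at 0.979 to 0.988. Results are therefore also given without them. The probe of the deleted gene was not analysed here.

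Cerebellins are secreted proteins that bridge neurexins on the presynaptic side to glutamate receptor delta subunits on the postsynaptic side. Lingo1 belongs to a receptor complex for inhibitors of axon growth, neuritin is a membrane-anchored protein that promotes neurite growth, and link proteins such as Hapln2 hold hyaluronan and proteoglycans together around axons. Most of this is known from the brain. In the gut the neurons lie in the enteric nervous system, which descends from neural crest cells that enter the gut wall, and several of the 8 genes can also be expressed by cells that are not neurons. Id2 is a helix-loop-helix protein without a DNA-binding region. Id proteins pair with E proteins and keep them from binding E-box sequences in DNA.

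Promoter windows were available for 4 of the 8 genes, and those below are shown because E-boxes are the DNA element that Id proteins act on through their partners. Each window runs from 250 bases before to 50 bases after a RefSeq transcription start of build GRCm38.p6, and capitals mark each match to the E-box CANNTG, which reads the same on both strands. The Clvs2 window (chr10:33624635-33624934, minus strand) held 1 match, the Hapln2 window (chr3:88027462-88027761, minus strand) 1, and the downstream of the 2 Lingo1 windows (chr9:56635599-56635898, minus strand) 1. The Cacng7 window (chr7:3332575-3332874, plus strand) held 0, as did the upstream Lingo1 window (chr9:56796261-56796560, minus strand), which is not printed.
Clvs2: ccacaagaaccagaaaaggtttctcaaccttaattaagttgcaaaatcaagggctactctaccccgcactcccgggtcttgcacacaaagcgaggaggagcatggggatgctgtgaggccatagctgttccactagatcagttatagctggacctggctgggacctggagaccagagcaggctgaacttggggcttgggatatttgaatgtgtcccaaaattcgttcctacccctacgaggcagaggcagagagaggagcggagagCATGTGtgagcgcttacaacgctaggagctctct
Hapln2: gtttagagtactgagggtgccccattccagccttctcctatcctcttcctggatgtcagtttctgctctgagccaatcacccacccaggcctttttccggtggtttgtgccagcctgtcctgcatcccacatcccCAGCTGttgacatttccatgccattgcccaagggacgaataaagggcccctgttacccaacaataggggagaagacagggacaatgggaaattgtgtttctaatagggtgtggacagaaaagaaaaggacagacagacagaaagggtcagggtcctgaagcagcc
Lingo1: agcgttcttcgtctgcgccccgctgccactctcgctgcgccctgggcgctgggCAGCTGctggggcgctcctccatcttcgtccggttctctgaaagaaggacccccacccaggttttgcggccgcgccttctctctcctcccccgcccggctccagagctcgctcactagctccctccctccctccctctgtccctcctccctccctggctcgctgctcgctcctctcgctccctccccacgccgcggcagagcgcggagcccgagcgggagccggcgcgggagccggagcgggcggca
Cacng7: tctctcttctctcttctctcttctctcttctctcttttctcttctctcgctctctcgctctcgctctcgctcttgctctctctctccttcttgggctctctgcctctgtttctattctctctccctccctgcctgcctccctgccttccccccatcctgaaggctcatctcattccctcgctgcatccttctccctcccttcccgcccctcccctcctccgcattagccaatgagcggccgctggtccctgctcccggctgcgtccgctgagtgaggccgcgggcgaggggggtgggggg
Of all 32851 promoter windows of this length, 72.3% held at least 1 CANNTG, against 3 of these 5 windows. The matches in Hapln2 and Lingo1 both read CAGCTG, a form held by 16.3% of all windows. A match of letters is a description of the sequence and does not show binding.

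Of the 8 genes, 6 had lower signals and 2 had higher signals on the Id2-/- arrays. Values below are log2 of the signal after the authors' normalization, on which the median spot of an array is 0, and differences are Id2-/- minus Id2+/+. The 6 lower genes were above background in 6 of 18 spots on the Id2-/- arrays and in all 18 spots on the Id2+/+ arrays. The 2 higher genes were above background in all 6 spots on the Id2-/- arrays and in 2 of 6 on the Id2+/+ arrays. The filter on dim signals asks for signal above background throughout at least 1 genotype. Each of the 8 genes passed it only through the genotype where it was higher. The full counts were therefore fixed by the filter, and nothing is read from them. For every one of the 8 genes the 3 values of one genotype lay wholly on one side of the 3 values of the other, which the choice of genes favors. Among all 12741 tested probes, 1.29% had every Id2-/- value below every Id2+/+ value and 2.73% had every Id2-/- value above.

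**Figure D1:**
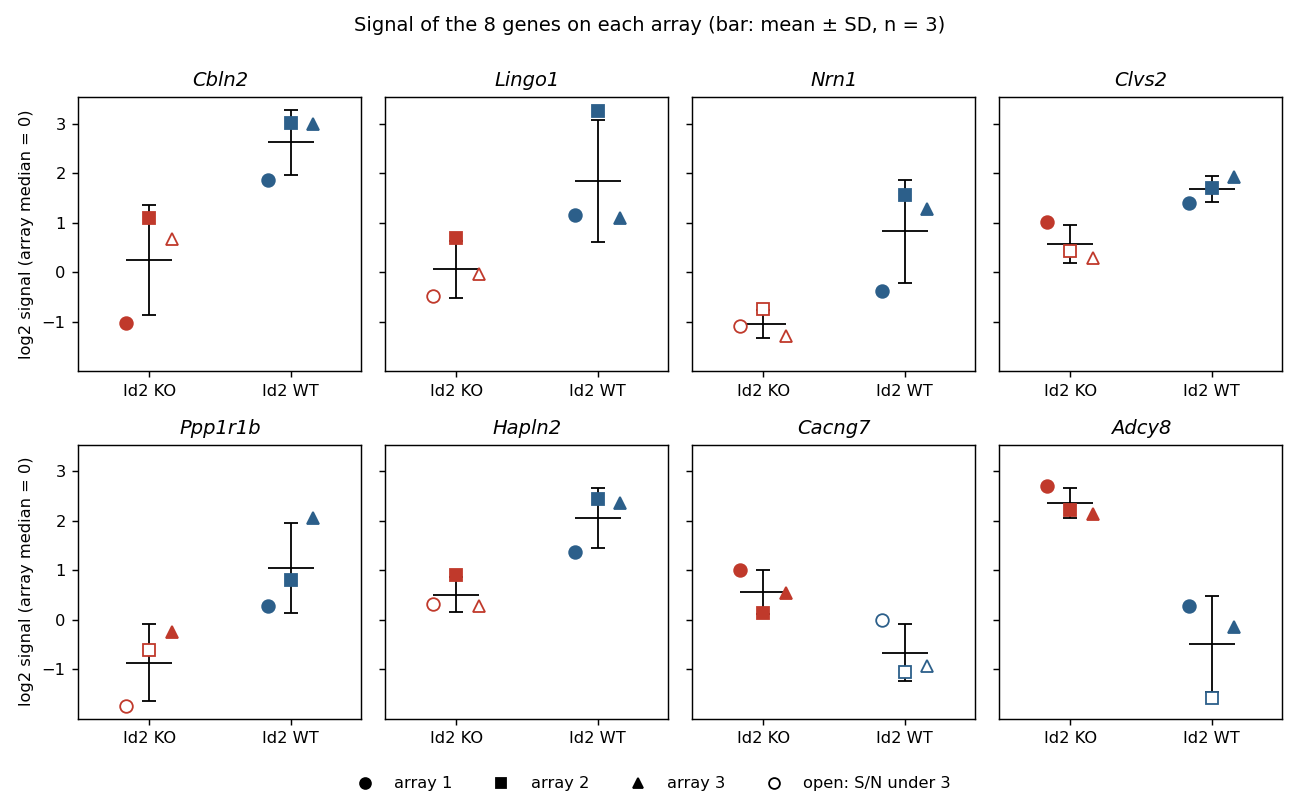
Log2 normalized signal (vertical axis, 0 is the median of the array) of the 8 genes on the 3 Id2 KO (Id2-/-) and 3 Id2 WT (Id2+/+) arrays, with the mean and SD as bars and the array number as the symbol; open symbols have a signal-to-noise score under 3. The genotypes do not overlap for any of the 8 genes, and Adcy8 has the widest gap between them, 1.86.

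Cbln2, which encodes the secreted synaptic organizer cerebellin 2, had the second largest decrease among all tested probes, as its choice favors. Its log2 signal (probe 718185) was -1.02, 1.09 and 0.67 on the Id2-/- arrays numbered 1, 2 and 3, against 1.86, 3.02 and 2.99 on the Id2+/+ arrays. The highest Id2-/- value was lower than the lowest Id2+/+ value by a gap of 0.77. The mean was 0.25 ± 1.12 in Id2-/- and 2.62 ± 0.66 in Id2+/+ (SD, n = 3 each), a difference of -2.37 (standard error 0.59), or 5.18-fold between the geometric means. Cbln2 was above background on 2 of 3 Id2-/- arrays, so part of this difference rests on a signal that was not well above background. Within the same-numbered pairs the difference was -2.88, -1.93 and -2.31. Leaving out the Id2-/- array numbered 1 gave -1.74 for the genotype difference.

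Lingo1, a leucine-rich repeat protein of the Nogo receptor complex that restrains axon growth and myelination, had values (probe 912200) of -0.47, 0.69 and -0.04 on the Id2-/- arrays, against 1.15, 3.26 and 1.10 on the Id2+/+ arrays. The Id2+/+ array numbered 2 stood well above the other Id2+/+ arrays, and only 1 of the Id2-/- signals was above background. The mean was 0.06 ± 0.58 in Id2-/- and 1.84 ± 1.23 in Id2+/+ (SD, n = 3 each). The difference was -1.78 (standard error 0.62) and became -1.07 once the Id2+/+ array numbered 2 was left out.

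Nrn1, the gene of neuritin, had values (probe 749109) of -1.09, -0.74 and -1.29 on the Id2-/- arrays, against -0.36, 1.57 and 1.28 on the Id2+/+ arrays. None of the Id2-/- signals and all of the Id2+/+ signals were above background. The Id2+/+ array numbered 1 lay much nearer to the Id2-/- arrays than the other Id2+/+ arrays did. The geometric means were 3.64-fold apart, and this rests on Id2-/- signals that were not well above background. It is no lower limit, since the smallest decrease within a same-numbered pair was 1.65-fold. The mean was -1.04 ± 0.28 in Id2-/- and 0.83 ± 1.04 in Id2+/+ (SD, n = 3 each). The difference was -1.86 (standard error 0.51), or -2.46 without the Id2+/+ array numbered 1.

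Clvs2, a lipid-binding protein of clathrin-coated vesicles in neurons, showed the smallest difference of the 6 lower genes. Its values (probe 913782) were 1.01, 0.42 and 0.30 on the Id2-/- arrays, against 1.40, 1.71 and 1.93 on the Id2+/+ arrays. Only the Id2-/- array numbered 1 was above background in that genotype, and it was also the one nearest to the Id2+/+ arrays. The difference was -1.10 (standard error 0.29), with means of 0.58 ± 0.38 in Id2-/- and 1.68 ± 0.27 in Id2+/+ (SD, n = 3 each). By pair the difference was -0.38, -1.28 and -1.63, so the pair numbered 1 stayed below 2-fold.

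Ppp1r1b encodes DARPP-32, an inhibitor of protein phosphatase 1 that relays dopamine and cyclic AMP signals in striatal neurons. Its values (probe 922636) were -1.74, -0.61 and -0.25 on the Id2-/- arrays, against 0.27, 0.81 and 2.05 on the Id2+/+ arrays. Values ranged widely within both genotypes, and in each the array numbered 1 was the lowest and the array numbered 3 the highest. The difference was -1.91 (standard error 0.56), with means of -0.87 ± 0.78 in Id2-/- and 1.04 ± 0.91 in Id2+/+ (SD, n = 3 each). It was above background on 1 Id2-/- array.

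Hapln2, a link protein of the hyaluronan matrix at nodes of Ranvier, had values (probe 833516) of 0.33, 0.91 and 0.29 on the Id2-/- arrays, against 1.36, 2.44 and 2.35 on the Id2+/+ arrays. Only the Id2-/- array numbered 2 was above background in that genotype. The difference was -1.54 (standard error 0.37), with means of 0.51 ± 0.35 in Id2-/- and 2.05 ± 0.60 in Id2+/+ (SD, n = 3 each). It was -1.03, -1.52 and -2.07 in the 3 pairs.

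Adcy8, a calmodulin-stimulated adenylyl cyclase that makes cyclic AMP in response to calcium, had the second largest increase among tested probes, as its choice favors. Its values (probe 620781) were 2.70, 2.21 and 2.14 on the Id2-/- arrays, against 0.28, -1.58 and -0.15 on the Id2+/+ arrays. The Id2-/- arrays lay close together, whereas the Id2+/+ array numbered 2 was below background and well under the other Id2+/+ arrays. The difference was 2.83 (standard error 0.49), or 7.12-fold between the geometric means, with means of 2.35 ± 0.30 in Id2-/- and -0.48 ± 0.97 in Id2+/+ (SD, n = 3 each). It was 2.29 when the Id2+/+ array numbered 2 was left out.

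Cacng7, an auxiliary subunit of AMPA-type glutamate receptors, had values (probe 753099) of 1.01, 0.13 and 0.55 on the Id2-/- arrays, against 0.00, -1.05 and -0.93 on the Id2+/+ arrays. All Id2-/- signals and none of the Id2+/+ signals were above background. The gap between the genotypes was only 0.13, the narrowest of the 8 genes. The geometric means were 2.34-fold apart, and this rests on Id2+/+ signals that were not above background. It is no lower limit, since the smallest increase within a same-numbered pair was 2.01-fold. The means were 0.56 ± 0.44 in Id2-/- and -0.66 ± 0.58 in Id2+/+ (SD, n = 3 each).

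Of the 8 genes, 6 were at least 2-fold apart in the same direction in all 3 pairs of same-numbered arrays, namely Cbln2, Lingo1, Ppp1r1b and Hapln2 among the lower genes and both higher genes. Of all tested probes, 0.196% were at least 2-fold lower and 0.126% at least 2-fold higher in all 3 pairs. Nothing is read from these counts, since the genes were picked for this difference. Fold ranges over the pairs ran from 3.80 to 7.36 for Cbln2 and from 4.89 to 13.8 for Adcy8, against 1.30 to 3.09 for Clvs2. Across all tested probes the median pair difference was 0.35, -0.04 and -0.19. For the 6 lower genes it was -1.33, -1.73 and -2.18, a distance that the choice of these genes favors.

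**Figure D2:**
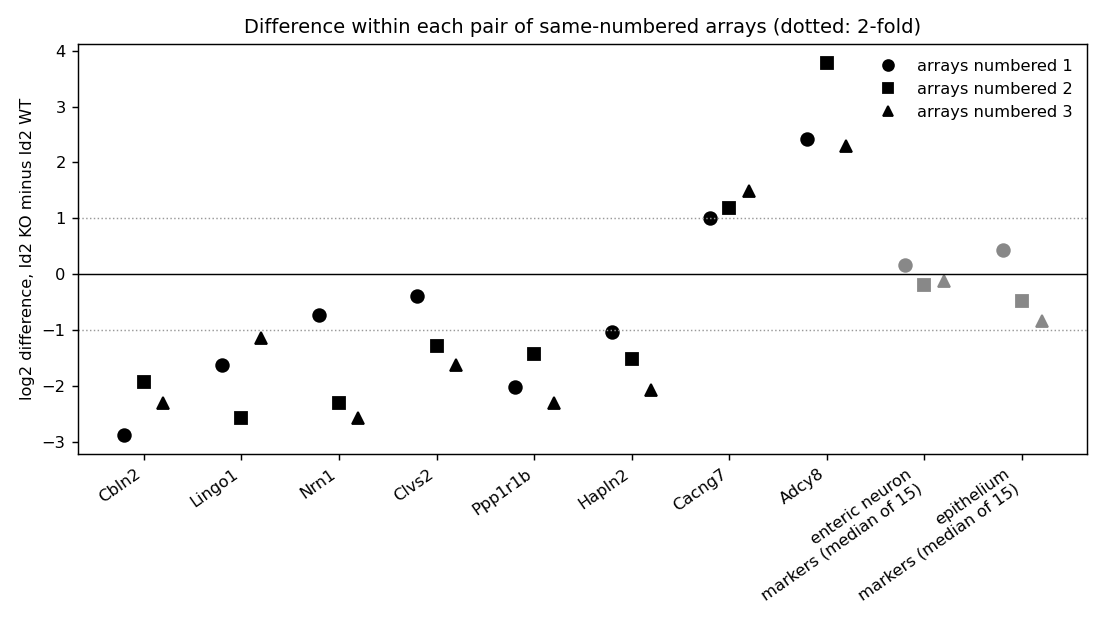
Log2 difference, Id2-/- minus Id2+/+ (vertical axis), within each of the 3 pairs of same-numbered arrays for the 8 genes, and as the median of 15 enteric neuron markers and of 15 epithelial markers in grey. Nrn1, Clvs2, Hapln2 and Cacng7 differ least in the pair numbered 1. The median of the epithelial markers lies above 0 in that pair and below 0 in the others, while that of the neuron markers stays within 0.19 of 0.

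Neuron markers of the gut differed little between the genotypes. Of 17 markers of enteric neurons with a probe, 15 were tested, and 14 of these were above background on all 6 arrays. Their median difference was -0.02, and 0 of 15 passed limma's test without the block, which called 0% of all tested probes. Their summed normalized signal was 976 to 1120 on the Id2-/- arrays and 837 to 1220 on the Id2+/+ arrays. The 1 exception was Nefm, a neurofilament gene, with a difference of 1.08, which passed with array number as a block (limma, adjusted p = 0.00612) and failed without it (adjusted p = 1.0). It also failed with the block and quantile normalization (limma, adjusted p = 0.539). Nefm was above background on 3 Id2-/- arrays and only 1 Id2+/+ array, so its difference rests in part on dim Id2+/+ signals. The block fit called 1.06% of all tested probes higher in Id2-/-. Markers of neurons of the central nervous system were at or near background, with 0 of 9 tested. For oligodendrocytes, the myelinating cells of the brain, Mbp, Mog and Olig1 were above background on no array, and 1 of 6 markers was tested. Cnp and Mal were each above background on 1 Id2-/- and 2 Id2+/+ arrays, with untested differences of 0.17 and -0.68. The tested marker was Olig2, a transcription factor gene, which was higher in Id2-/- by 1.11 (limma, adjusted p = 0.0042 with the block and 1.0 without it). With the block and quantile normalization it failed (limma, adjusted p = 0.6). Olig2 was above background on 3 Id2-/- arrays and 2 Id2+/+ arrays.

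Epithelial markers had lower mean signals in Id2-/-. All 15 tested markers of 16 were above background on all 6 arrays and had a lower mean in Id2-/-, with differences of -1.09 to -0.05 and a median of -0.31. Their summed signal was 858, 937 and 968 on the Id2-/- arrays numbered 1, 2 and 3, against 617, 1420 and 1660 on the Id2+/+ arrays. By pair their median difference was 0.43, -0.49 and -0.83. This is not compared with the 6 lower genes, since those were picked for their genotype difference. The median over the epithelial markers was 0.02 without the Id2+/+ array numbered 3, so its direction rested on that array, and it was -0.64 without the Id2+/+ array numbered 1. 1 of the 15, the junction gene Tjp3, passed with the block (limma, adjusted p = 0.00582) and failed without it (adjusted p = 1.0). It also failed with the block and quantile normalization (limma, adjusted p = 0.363). The block fit called 1.12% of all tested probes lower in Id2-/-. Endothelial and blood markers lay the other way. All 7 tested markers had a higher mean in Id2-/-, by 0.02 to 0.88 with a median of 0.41, and 0 passed either fit. Their summed signal was 1710, 1680 and 1300 on the Id2-/- arrays numbered 1, 2 and 3, against 936, 1570 and 1370 on the Id2+/+ arrays, and their median was -0.02 without the arrays numbered 1. Medians were 0.04 over 10 markers of mesenchyme and smooth muscle, 0.07 over 4 of enteroendocrine cells and 0.20 over 2 of neural crest and glia, and the 1 tested marker of stomach epithelium, Sox2, was at 0.58. The part of these cell types in the differences of the 8 genes was not tested. In a bulk sample, fewer cells of a type and less RNA per cell cannot be told apart.

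Signals of the 8 genes also followed the array number. Within their own genotypes the arrays numbered 1 gave lower values than the mean of the other 2 arrays for Cbln2 (-1.90 in Id2-/- and -1.14 in Id2+/+), Lingo1 (-0.79 and -1.03) and Ppp1r1b (-1.31 and -1.16). Nrn1 was at -0.08 in Id2-/-, where it was below background throughout, and at -1.79 in Id2+/+, and Hapln2 at -0.27 in Id2-/- and -1.04 in Id2+/+. Both genes that were higher in Id2-/- were also higher on the arrays numbered 1, Cacng7 by 0.67 in Id2-/- and 0.995 in Id2+/+, and Adcy8 by 0.53 in Id2-/- and 1.14 in Id2+/+. Clvs2 was the exception, at 0.65 in Id2-/- and -0.42 in Id2+/+. Over all tested probes the quartiles of this measure, averaged over both genotypes, were -0.54 and 0.50. The part of the array number in these signals was not tested. Each genotype had 1 array of every number. Without the arrays numbered 1 the genotype differences ran from -2.43 for Nrn1 to 3.04 for Adcy8 (2 arrays per genotype). Their direction could not change, since the genotypes did not overlap for any of the 8 genes.

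**Figure D3:**
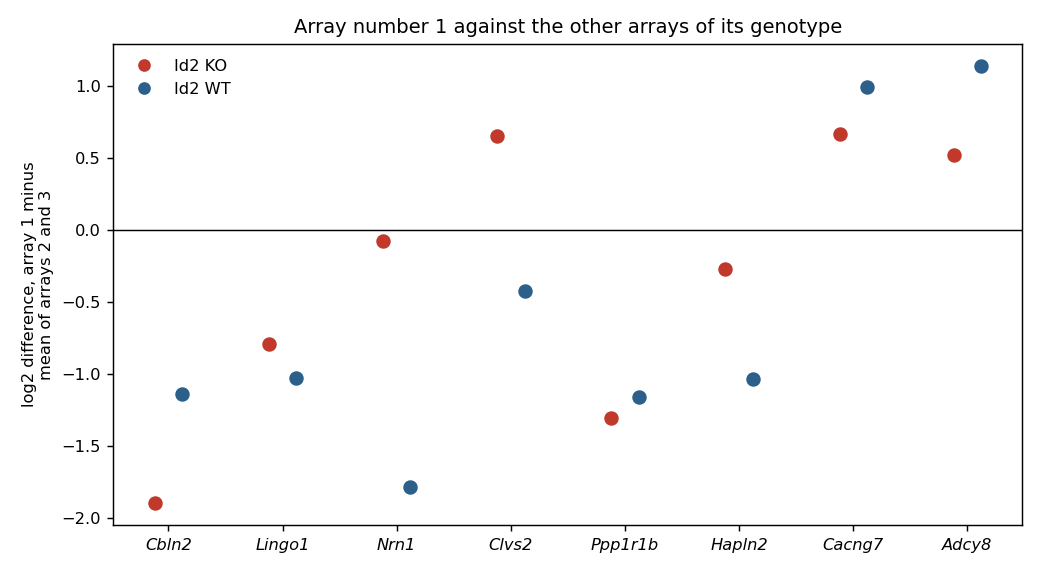
Log2 difference between the array numbered 1 and the mean of the arrays numbered 2 and 3 of the same genotype (vertical axis), for Id2 KO (Id2-/-) and Id2 WT (Id2+/+). Cbln2, Lingo1 and Ppp1r1b lie below 0 and Cacng7 and Adcy8 above 0 in both genotypes.

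Paralogs and partners of the 8 genes were taken from lists. Of 76 such genes 62 had a probe and 19 were tested, and of 43 genes of the general synaptic machinery 33 had a probe and 16 were tested. All 35 tested genes differed by less than 2-fold, which is not compared with the 8 genes, since those were picked for large differences. They had a median of 0.07, against 0.04 over all tested probes. Among the genes that were not tested, some probes were more than 2-fold apart, such as Adcy7 (-1.44), Nlgn3 (1.23), Cbln3 (-1.12) and Cbln1 (1.08), each above background on 2 arrays at most. 0 of 35 passed limma without the block (1 at an unadjusted p under 0.05) and 0 passed with it, where Gria2 had the lowest adjusted p, 0.413. Over all probes, limma without the block called 0% higher and 0% lower in Id2-/-, and limma with the block called 1.06% higher and 1.12% lower. The groups did not overlap for 2 of the 35, the phosphatase inhibitor gene Ppp1r1a and the vesicle calcium sensor gene Syt1, both higher in Id2-/-. This was 5.71% of the 35, against 2.73% of all tested probes with every Id2-/- value above and 1.29% with every one below, and nothing is read from so small a count.

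**Figure D4:**
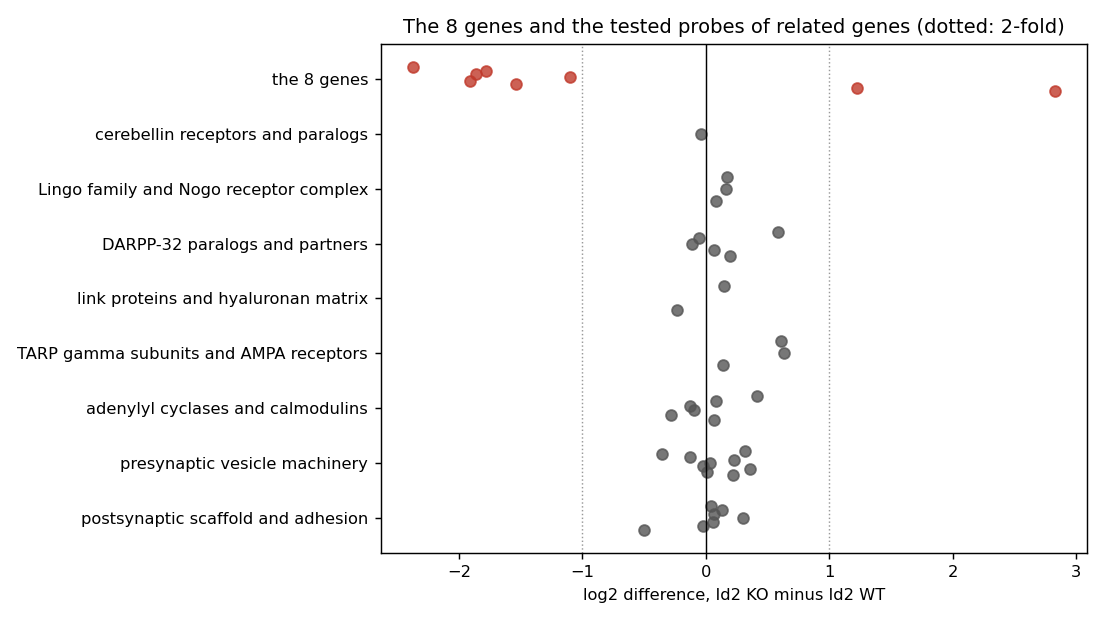
Log2 difference, Id2-/- minus Id2+/+ (horizontal axis), of the 8 genes in red and of every tested probe of related genes in grey, by list. All grey points lie inside the dotted 2-fold lines. The red points lie outside because those genes were picked for large differences on these arrays.

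Among partners of cerebellins, Nrxn3, a presynaptic neurexin, was at -0.03 (standard error 0.36). The paralogs of Cbln2 were not tested. Cbln1 was above background on 1 Id2-/- array only, Cbln3 on 2 Id2+/+ arrays only, and Cbln4 on none. In the Nogo receptor group, the paralog Lingo4 was at 0.17 (standard error 0.42), with 3.66, 3.88 and 4.07 on the Id2-/- arrays, against 2.76, 4.16 and 4.17 on the Id2+/+ arrays. These ranges overlapped. The receptor gene Rtn4r was at 0.17 (standard error 0.26) and its ligand gene Rtn4 at 0.08 (standard error 0.39). Nrn1l, the paralog of Nrn1, was above background on no array, and 0 of 5 genes with a probe in the list of Clvs2 relatives were tested.

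Ppp1r1a, the paralog of Ppp1r1b, ran the other way from it. Its values were 1.30, 1.71 and 1.47 on the Id2-/- arrays, against 1.05, 0.98 and 0.68 on the Id2+/+ arrays, a difference of 0.59 (standard error 0.24; limma, adjusted p = 1.0 without the block and 0.554 with it). The phosphatase subunit gene Ppp1cb was at -0.11 and the kinase activator gene Cdk5r1 at 0.20. In the list of Hapln2, the matrix genes Vcan and Tnc were at 0.15 and -0.23, while Hapln3 and Hapln4 were above background on no array and Hapln1 on 2 Id2-/- arrays and 1 Id2+/+ array.

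Of the relatives of Cacng7, the paralog Cacng4 was at 0.61 (standard error 0.49; limma with the block, adjusted p = 0.467), the AMPA receptor subunit gene Gria2 at 0.63 and the auxiliary subunit gene Cnih2 at 0.14. Of the relatives of Adcy8, Adcy2 was at 0.42 (standard error 0.42), Adcy6 at 0.08, Adcy9 at -0.13 and the calmodulin gene Calm2 at -0.10 at its brighter probe. Adcy7 was above background on 2 Id2+/+ arrays only. Of the general synaptic genes, Syt1 was at 0.32, the fusion factor gene Nsf at 0.35, the vesicle SNARE gene Vamp2 at 0.23, the adhesion gene Nlgn1 at 0.30, the scaffold gene Shank3 at 0.13 and the glutamate receptor gene Grin2b at -0.50. None of these passed either fit.

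The named probes whose signal was most like that of each gene over the 6 arrays were listed by Pearson's r, as a description. These 6 points share the genotype difference and the array numbers, and the r values hold both. For Cbln2 they were Spink1 (r = 0.989), Clec12a (0.988) and Ropn1l (0.976), and for Lingo1 they were Gulo (0.966), Nox4 (0.958) and Ropn1l (0.921). For Nrn1 they were Epyc (0.969), Tfec (0.968) and Clu (0.965), and for Hapln2 they were Clu (0.993), Sult1d1 (0.982) and Mvp (0.958). Ropn1l stood in the lists of both Cbln2 and Lingo1, and Clu in those of both Nrn1 and Hapln2. For Clvs2 they were Rbp4 (0.988), Slfn4 (0.981) and Pdzk1ip1 (0.976), and for Ppp1r1b they were Ptpn6 (0.979), Retreg1 (0.969) and Fabp1 (0.964). For Cacng7 they were Crabp2 (0.987), Sox2 (0.975) and Golga1 (0.971), and for Adcy8 they were Mypop (0.976), D6Wsu163e (0.967) and Gpbar1 (0.956).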

How the data were processed

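RNA of 6 samples was amplified in 1 round and hybridised to single-color mouse genome survey arrays, 1 array per sample. The deposited files give for each probe an intensity, a signal-to-noise score, a flag and an intensity that the authors divided by a constant of the array, equal to the median of its unflagged spots. The methods name flags under 5000 as false spots; here flags of 5000 or more were taken as bad, because nearly all spots lie under it. The number of arrays limits the precision.

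Log2 of the authors' normalized value was fitted with limma 3.58.1 in R 4.3.3 (eBayes, Benjamini-Hochberg at 0.05) over 12741 probes unflagged on all arrays and above background (score of 3 or more) throughout at least 1 genotype. A gene of a list stands for its brightest tested probe. After removal of the genotype means, arrays with the same number correlated (r = 0.838, 0.644 and 0.579 for numbers 1, 2 and 3), and array number was used as a block in a second fit, although no label says what a number shares. In that fit limma estimated 1 common variance for all probes. Both fits were also run on simulated data. The simulated arrays had no effect of array number, so that run does not show how the fits perform on these arrays. Nothing says that samples are separate embryos, so the p-values cover only the spread among samples.

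The 8 genes and the gene lists were chosen with earlier results of these data known. The text names the 8 genes, up to 3 tested genes of each related list with the smallest p, tested paralogs, and for each of the 8 genes the 3 probes most like it. Cell type genes and untested paralogs were named after their values were seen. The files name no genome build. Gene names come from the platform annotation, and promoter sequences from RefSeq tables. Alternatives were quantile normalization, looser and stricter signal filters, an offset, the series table, median centring, the replicate block, a trended robust prior, the methods' t-test and leaving out arrays. Figures were drawn with matplotlib 3.10.9.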

Additional observations from a re-analysis of the deposited data

How the results depend on the processing

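Leaving out arrays or adding an offset could not turn the direction of the 8 genes, since their genotypes did not overlap. Some settings, such as the series table and the replicate block, returned the main difference unchanged. All 120 alternatives that could be run kept the direction, and nothing is read from this. Of these, 119 moved by less than 1 SD of the replicates. The exception was Clvs2, at -1.46 without the arrays numbered 1, a setting chosen after seeing the data. No value could be had with probes above background on all 6 arrays, since none of the 8 genes reached it. With 1 array left out at a time, the difference ranged from -2.79 to -1.74 for Cbln2, -2.15 to -1.07 for Lingo1, -2.46 to -1.50 for Nrn1, -1.32 to -0.96 for Clvs2, -2.30 to -1.41 for Ppp1r1b, -1.89 to -1.35 for Hapln2, 1.004 to 1.56 for Cacng7 and 2.29 to 3.21 for Adcy8. Over all probes, limma called 0 without the block and 278 with the replicate block, and 0 again with the replicate block and quantile normalization. Student's t-test, which the methods name, called 242 of the 12741 tested probes at an unadjusted p under 0.05. It called 0 after Benjamini-Hochberg adjustment, and nothing is read from the unadjusted count. The number of probes at least 2-fold apart in all 3 pairs was 41, and it was 11 when all 6 arrays had to be above background and 17 with an offset of 50% of the array median. The same offset brought the difference to -1.25 for Nrn1, -1.28 for Ppp1r1b and 2.15 for Adcy8. It brought Clvs2 to -0.89 and Cacng7 to 0.80, both below 2-fold. Medians of the related lists moved beyond the spread of their pairs in 8 of 127 cases, 6 of them for the list that rests on Nrxn3 alone. The 8 genes were above background in 12 spots on the Id2-/- arrays and in 20 on the Id2+/+ arrays, and differences that rest on the other spots carry the error of dim signals.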
